A study of Macaca mulatta with 15 samples.

Results

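T cell receptor signalling genes encode the machinery that turns the binding of an antigen into a response inside a T cell. The gene set holds 41 listed genes, chosen by name for their role in the receptor, its kinases, adaptors, effectors and brakes. The choice was made with earlier results of these data known. A row of the deposited count table belonged to the set when its gene symbol was one of the 41, and 39 of the 41 were found among 34884 genes. All 39 passed the filter on low counts and are among the 14814 genes tested. TXK was not analysed here, and LAT was found by its gene ID and is given apart from the 39.

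In the resting cell the receptor's CD3 and zeta chains carry tyrosine motifs but no enzyme of their own. When antigen binds, the kinase LCK phosphorylates these motifs, ZAP70 docks on them and phosphorylates the adaptors LAT and SLP-76, and the adaptors gather PLCG1, VAV1 and the GRB2 family. From there the signal runs to Ras through RASGRP1 and SOS1, to NF-kB through PRKCQ, BCL10 and MALT1, and to NFAT through calcium and calcineurin. Phosphatases, CSK, ubiquitin ligases and the SLAP adaptors hold it in check. Naive T cells have not met their antigen, and memory T cells have and answer faster.

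The 15 libraries came from peripheral blood T cells of 2 healthy monkeys of the species Macaca mulatta, named RhDBCb and RhM22, with blood taken before or after the animals received 2-hydroxypropyl-beta-cyclodextrin (Kleptose HBP, parenteral grade), a cyclic sugar that takes up cholesterol. A 15% (w/w) solution was injected under the skin at a daily dose of 1 ml per kg over at most 120 days. Both animals received it, so there is no untreated animal. The 4 groups of cells are CD4 naive, CD4 memory and CD8 memory, each with 4 libraries, and CD8 naive, with 3, because the treated sample of RhDBCb for that subset was not analysed here. Each blood draw (an animal at a time) gave 3 or 4 of the libraries, and 7 before and after pairs exist, 3 from RhDBCb and 4 from RhM22. The ages of the animals and the way the subsets were sorted are not given in the sources used here.

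The libraries held 44414963 to 71787211 counts, of which the 39 genes made up 0.659% to 0.823%. CD4 lay at 207 to 549 CPM (read counts over library size, with the library size scaled by TMM, edgeR's correction for library make-up) in CD4 libraries and at up to 1.68 in CD8 libraries, and CD8A at 665 to 861 in CD8 libraries and at up to 3.93 in CD4 libraries. The summed CPM of 13 memory markers did not overlap between memory and naive libraries of either lineage, with 4920 to 6760 in CD4 memory against 1900 to 3630 in CD4 naive and 6190 to 7420 in CD8 memory against 1640 to 3360 in CD8 naive. That of 8 naive markers overlapped in CD4 cells, at 8120 to 11700 in memory and 10100 to 21300 in naive libraries. In CD8 cells it was 4410 to 7510 in memory and 11100 to 14500 in naive libraries, without overlap. The 4 before libraries of RhDBCb tended to have fewer genes detected, 13525 to 14750 against 14410 to 15445 in the other libraries, ranges that overlap. The lowest count of any of the 39 genes in any library was 69, for CBL.

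Values for each subset are given as CPM in the order RhDBCb before, RhDBCb after, RhM22 before and RhM22 after, and for CD8 naive in the same order without RhDBCb after. The deposited lengths behind the FPKM values followed the span of a gene on the genome for most genes, so no level was compared between genes. A gene was called when the Benjamini-Hochberg adjusted p of edgeR's quasi-likelihood test over the 14814 genes was under 0.05. All adjusted p-values below are from that test, and each SE is that of a log2 fold change. With 2 animals, the p-values measure the spread between these libraries and not between animals at large, and in bulk RNA fewer cells of a type and less RNA per cell cannot be told apart.

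**Figure D1:**
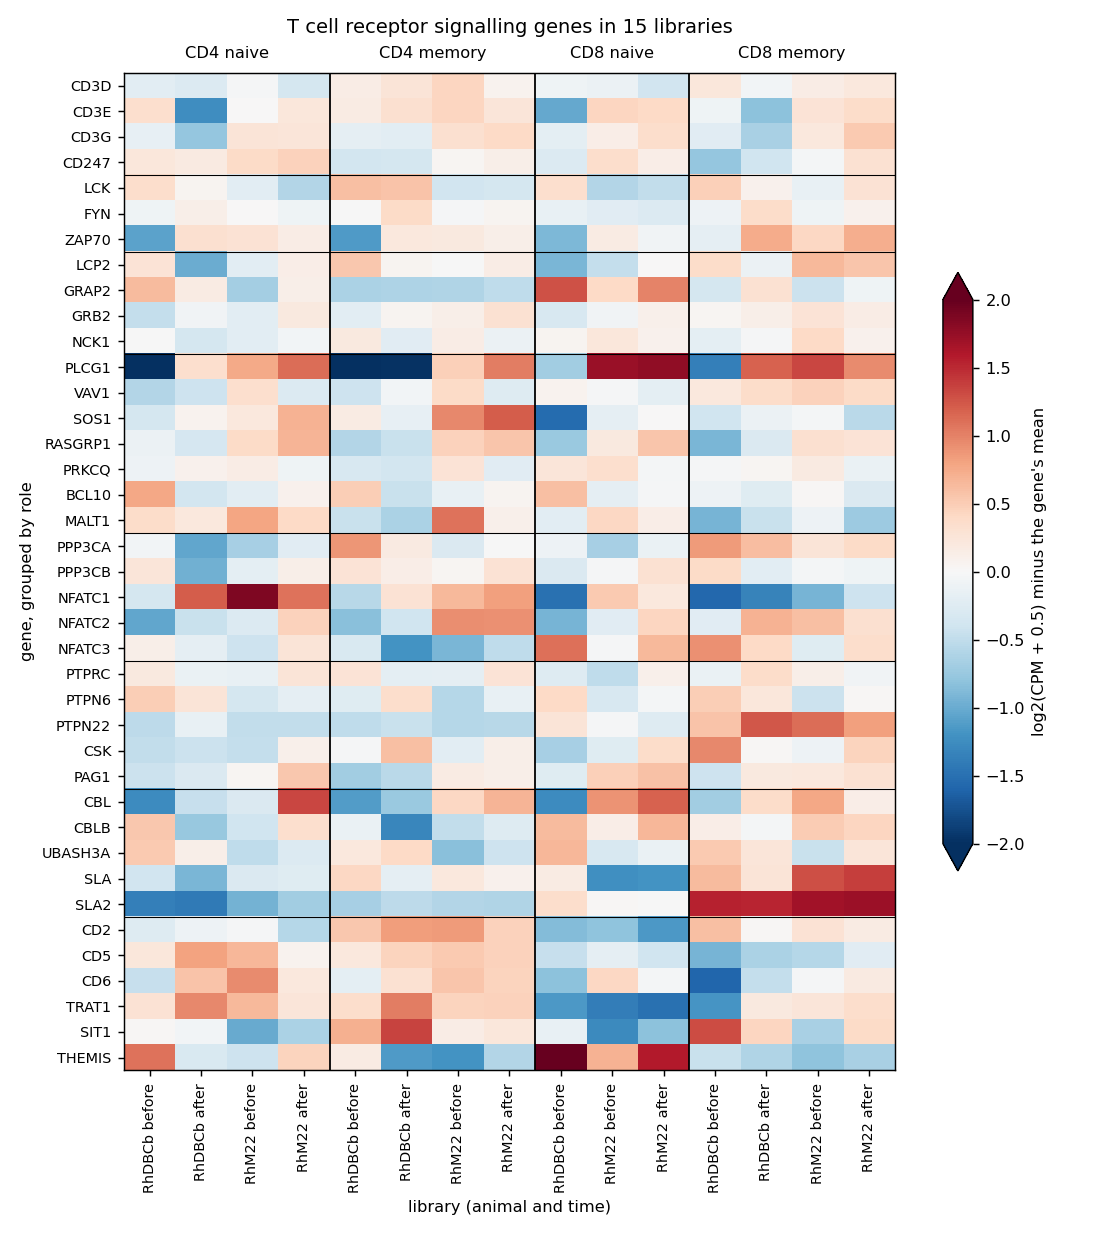
Each row is 1 of the 39 genes and each column 1 of the 15 libraries, ordered by subset, with lines between the roles. The colour is log2(CPM + 0.5) minus the gene's mean over the libraries, and colours stop at 2 in either direction. SLA2 and PTPN22 are high in the CD8 memory columns, THEMIS in the CD8 naive columns, and PLCG1, CBL and ZAP70 are low in columns of RhDBCb before.

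Over the 4 contrasts between subsets, 17 of the 39 genes were called at least once and 22 in none. That is 43.6% of the 39, against 23.6% of all genes tested that were called at least once. The genes were chosen with earlier results of these data known. The part of that choice in this and later shares was not tested. All 6 surface and signal-tuning proteins were called at least once (CD2, CD5, CD6, TRAT1, SIT1 and THEMIS), as were 3 of the 5 ubiquitin ligases and SLAP adaptors and 3 of the 5 calcineurin and NFAT genes. Of the 4 receptor chains 1 was called, of the 3 kinases 1, of the 4 adaptors 2, of the 5 genes of the phosphatase and CSK group 1, and of the 7 effectors 0. These groups are small and were not tested against each other. DESeq2 called 20 of the 39 at least once, among them 3 of the 7 effectors, each between CD8 and CD4 memory cells (PLCG1 with an adjusted p of 0.0408 in DESeq2, MALT1 with 0.0348 and SOS1 with 0.0204). Between memory and naive cells DESeq2 called 2671 (CD4) and 3526 (CD8) of all genes, against 1708 and 2448 in edgeR. Between CD8 and CD4 cells it called 1055 (naive) and 2065 (memory), against 499 and 1221. The share of all genes that DESeq2 called at least once was not counted. In edgeR, GRAP2, SLA2, THEMIS, NFATC1 and CD2 were each called in 3 of the 4 contrasts, and no gene in all 4.

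Among the receptor chains, CD3D stood at 213 to 371 CPM over the 15 libraries and CD3G at 40.1 to 98.9. CD247, the zeta chain, stood at 6.04 to 14.8. CD3E ranged from 51.5 to 166, but its deposited length was 5.63 times the RefSeq span of the gene. Its gene model may take in a neighbour, and the library kit does not mark strand, so CD3E is uncertain. CD3D was the chain that was called, in CD4 memory against CD4 naive cells.

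The kinases LCK and FYN start the signal, and neither was called between any subsets. LCK stood at 1517, 1243, 1034 and 796 CPM in CD4 naive cells, at 1805, 1771, 915 and 933 in CD4 memory cells, at 1502, 799 and 847 in CD8 naive cells and at 1664, 1262, 1074 and 1455 in CD8 memory cells. In each subset the RhDBCb before library was above both RhM22 libraries. FYN was among the steadiest of the 39 genes, at 251 to 396 over the 15 libraries, a ratio of highest to lowest of 1.58. PLCG1, the phospholipase that makes the calcium and diacylglycerol signals, was the least steady, with a highest value 47.1 times the lowest.

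Memory CD4 cells had more mRNA of CD2, SIT1, CD3D and PPP3CA and less of THEMIS, NFATC3 and GRAP2 than naive CD4 cells. These 7 genes, 4 higher and 3 lower, are 17.9% of the 39, against 11.5% of all genes tested in this contrast (6.82% higher and 4.71% lower). The median log2 fold change of the 39 genes was 0.00 and that of all genes tested -0.02. CD2, an adhesion receptor that binds CD58 and lowers the threshold of activation, stood at 327, 399.9, 406 and 309 CPM in memory cells and 189, 209, 222 and 151 in naive cells. The groups did not overlap, and the log2 fold change was 0.91 (adjusted p = 0.000714, SE 0.13). SIT1, a membrane adaptor that binds the phosphatase SHP-2 and dampens signalling, stood at 37.3, 58.6, 25.1 and 26.4 in memory cells and 23, 21.6, 10.9 and 14.3 in naive cells. The groups did not overlap, and memory cells were higher by a log2 fold change of 1.08 (adjusted p = 0.00544, SE 0.22).

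PPP3CA, a catalytic subunit of calcineurin, stood at 57.9, 35.4, 25.5 and 31 CPM in CD4 memory cells and 30.1, 15.1, 19.6 and 26.8 in CD4 naive cells. The groups overlapped, but memory cells were higher within each of the 4 draws, by a log2 fold change of 0.69 (adjusted p = 0.0279, SE 0.18). CD3D, a receptor chain, stood at 307, 330.2, 371 and 291 in memory cells and 239.5, 229, 272 and 216 in naive cells, without overlap, a log2 fold change of 0.44 (adjusted p = 0.0195, SE 0.11). THEMIS, a protein bound to GRB2 and SHP-1 that is needed in thymic selection, stood at 51.9, 21, 20 and 30.7 in memory cells and 99, 37.5, 34.6 and 63.4 in naive cells. The RhDBCb before library was the highest of both groups, and memory cells were lower in each of the 4 draws, by a log2 fold change of -0.91 (adjusted p = 0.007, SE 0.19).

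NFATC3, an NFAT factor that calcineurin sends to the nucleus, stood at 139.5, 74.9, 91.6 and 121 CPM in CD4 memory cells and 188, 152, 129 and 206 in CD4 naive cells, a log2 fold change of -0.67 (adjusted p = 0.0112, SE 0.15) that was negative in each of the 4 draws. GRAP2, the adaptor GADS that joins SLP-76 to LAT, stood at 44.2, 44.7, 45.4 and 48.4 in memory cells and 108, 77.1, 43.1 and 75.3 in naive cells. It was lower in memory cells in 3 of 4 draws, with a log2 fold change of -0.66 (adjusted p = 0.0477, SE 0.20), and a little higher in RhM22 before treatment. The calls of CD2, SIT1, THEMIS and NFATC3 held when any 1 of the 15 libraries was left out. With animal plus time in place of the draw, CD2, SIT1 and CD3D kept their calls. THEMIS (adjusted p = 0.116), NFATC3 (0.146), PPP3CA (0.123) and GRAP2 (0.0657) did not. PPP3CA was not called without any 1 of the 4 CD4 libraries of RhDBCb (adjusted p = 0.065 to 0.106). CD3D was not called without RhDBCb CD4 naive after (0.0567), RhDBCb CD4 memory after (0.0653), RhM22 CD4 memory before (0.0633) or RhM22 CD4 naive after (0.064). GRAP2 was called in 5 of the 15 such fits, those that left out a RhDBCb CD8 library or a RhM22 CD4 library before treatment (adjusted p up to 0.188 in the others). Without RhDBCb CD4 naive after or RhDBCb CD4 memory after, 4 of the 39 were called (1189 and 1145 of all genes). Without the draw in the model 1 was, CD2 (480 of all genes).

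Among CD8 cells, memory cells had more mRNA of the SLAP adaptors SLA and SLA2, of CD2, TRAT1, SIT1, LCP2, PPP3CA, PTPN22 and ZAP70, and less of THEMIS, GRAP2 and NFATC1. These are 9 higher and 3 lower of 39, or 30.8%, against 16.5% of all genes tested (9.93% higher and 6.6% lower). The median log2 fold change of the 39 was 0.12 and that of all genes tested 0.03. SLA2, the adaptor SLAP2 that brings CBL to the receptor for its removal, stood at 182, 180.1, 200.1 and 206 CPM in CD8 memory cells and 79.5, 63.6 and 62.1 in CD8 naive cells. The lowest memory library was more than 2 times the highest naive library, and the log2 fold change was 1.51 (adjusted p = 0.000103, SE 0.18). SLA, its relative SLAP, stood at 198, 152, 313 and 335 in memory cells and 143, 54.1 and 55.5 in naive cells, higher by a log2 fold change of 1.76 (adjusted p = 0.00185, SE 0.31) and without overlap. RhDBCb before treatment had the smallest difference, and without the 4 before libraries of RhDBCb the log2 fold change of SLA was 2.43.

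THEMIS was the CD8 gene with the largest fall. It stood at 33.8, 30.3, 26.2 and 29.6 CPM in CD8 memory cells and 209.8, 75.8 and 141 in CD8 naive cells, with no overlap and a log2 fold change of -1.99 (adjusted p = 5.36e-05, SE 0.21). GRAP2 stood at 53.9, 85, 51.3 and 65.4 in memory cells and 168, 91.6 and 139 in naive cells, lower by a log2 fold change of -1.08 (adjusted p = 0.00461, SE 0.22). NFATC1, the NFAT factor that is itself induced by NFAT, stood at 60.6, 71.4, 94.6 and 136 in memory cells and 64, 259.5 and 209.9 in naive cells. In RhDBCb before treatment the NFATC1 values were near each other, and the log2 fold change of -0.78 (adjusted p = 0.042, SE 0.24) was called in 5 of the 15 fits that left out a library, those without a CD4 naive library other than RhDBCb after or without a before CD8 library of RhDBCb (adjusted p up to 0.173 in the others).

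CD2 was higher in CD8 memory cells too, at 342, 229, 275 and 251 CPM against 124, 129 and 101 in CD8 naive cells, by a log2 fold change of 1.22 (adjusted p = 0.000144, SE 0.15) and with no overlap. PTPN22, the phosphatase LYP that acts with CSK on LCK and ZAP70, stood at 121, 192, 176 and 144 in memory cells and 97.3, 79.3 and 67.7 in naive cells, without overlap, higher by a log2 fold change of 0.88 (adjusted p = 0.00201, SE 0.16). SIT1 stood at 56.4, 30.5, 14.2 and 29.6 in memory cells and 20.2, 9 and 12.5 in naive cells. The SIT1 groups overlapped, but memory cells were higher in each of the 3 draws with both subsets, by a log2 fold change of 1.06 (adjusted p = 0.00831, SE 0.24). PPP3CA, the calcineurin subunit, stood at 57.1, 48.2, 37.5 and 41.1 against 29.3, 19.6 and 28.5, higher by a log2 fold change of 0.89 (adjusted p = 0.00967, SE 0.21) without overlap, and was not called without RhDBCb CD8 naive before (adjusted p = 0.057).

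LCP2, the adaptor SLP-76, stood at 10.1, 7.13, 12.5 and 11.6 CPM in CD8 memory cells and 3.85, 5.41 and 7.75 in CD8 naive cells, higher by a log2 fold change of 1.02 (adjusted p = 0.0269, SE 0.29), and the groups overlapped. It was not called without RhDBCb CD8 naive before (adjusted p = 0.131), RhM22 CD8 naive before (0.0805) or RhM22 CD8 memory before (0.0917). ZAP70, the kinase that docks on the CD3 and zeta chains, stood at 254, 482, 384 and 476 in memory cells and 155, 323 and 276 in naive cells, higher by a log2 fold change of 0.58 (adjusted p = 0.0138, SE 0.14) and in each of the 3 draws, though the groups overlapped. It was not called without RhM22 CD8 naive after (adjusted p = 0.11). TRAT1, the adaptor TRIM that binds the zeta chain, stood at 32.8, 86.1, 88.4 and 95.8 in memory cells and 33.4, 28.3 and 26.2 in naive cells. Both RhM22 draws showed the difference and RhDBCb before treatment did not, and the log2 fold change was 1.19 (adjusted p = 0.0087, SE 0.27). TRAT1 was not called without RhM22 CD8 naive before (adjusted p = 0.059) or RhM22 CD8 naive after (0.0693), and without the 4 before libraries of RhDBCb its log2 fold change was 1.62. With animal plus time in place of the draw, PPP3CA (adjusted p = 0.0769), LCP2 (0.0796), ZAP70 (0.141) and NFATC1 (0.136) were not called between these CD8 subsets.

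Markers of natural killer cells were also higher in CD8 memory libraries. The summed CPM of the 8 of 10 listed markers that were found was 39 to 94.5 in CD8 memory cells, 13.3 to 26.6 in CD8 naive cells, 7.05 to 9.16 in CD4 memory cells and 5.28 to 7.53 in CD4 naive cells. KLRF1 stood at 19.1 to 61.9 CPM in CD8 memory cells, TYROBP at 13.2 to 17.9 and NCAM1 at up to 1.8. KLRF1 alone gave 61.9 of the 94.5 in RhM22 CD8 memory after, while FCER1G was at up to 0.23 in any library. None of the 8 markers was at 0 throughout a subset. TRGC2, the 1 of 5 listed gamma-delta T cell genes that was found, stood at 10.1 to 34.4 in CD8 memory cells and 2.11 to 3.99 in CD8 naive cells. The sum of 9 B cell markers was 14.5 to 20.2 in CD8 memory cells, 8.36 to 18.4 in CD8 naive cells, 4.21 to 8.89 in CD4 memory cells and 2.34 to 3.19 in CD4 naive cells, with MS4A1 at up to 1.71. EBF1 was at 0 in every CD4 naive library and VPREB3 in every CD8 library. Whether these markers came from other cells, and the part of such cells in the results between subsets, was not tested.

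**Figure D2:**
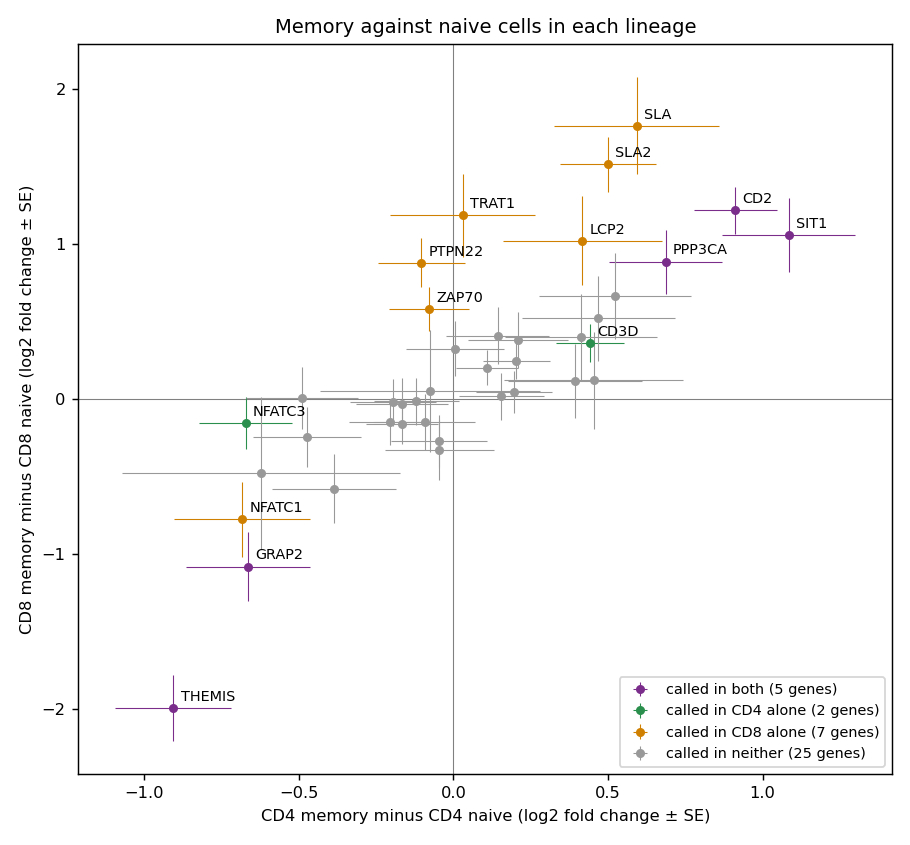
Each point is 1 of the 39 genes, with the log2 fold change of memory against naive CD4 cells on the horizontal axis and that of CD8 cells on the vertical axis. Bars are the SE. CD2, SIT1 and PPP3CA lie to the upper right and THEMIS and GRAP2 to the lower left, while TRAT1, PTPN22 and ZAP70 lie near 0 on the CD4 axis.

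Of the 7 genes called in CD4 cells, 5 were called in the same direction in CD8 cells (CD2, SIT1, PPP3CA, THEMIS and GRAP2), which is 71.4% of the CD4 list and 41.7% of the 12 called in CD8 cells. None was called in opposite directions. The overlap among all genes called was not counted, and both contrasts come from the same draws, so these shares have no background. Whether the step from naive to memory differed between the lineages was tested as an interaction. In edgeR 0 of the 39 genes were called for this difference, and 0.0878% of all genes tested were called (0.0675% higher and 0.0203% lower). The smallest p-values were those of PTPN22, with a difference between the lineages of 0.98 (adjusted p = 0.117, SE 0.21), SLA2 with 1.01 (adjusted p = 0.147, SE 0.23) and THEMIS with -1.09 (adjusted p = 0.241, SE 0.28). ZAP70 had 0.66 (adjusted p = 0.36, SE 0.19) and TRAT1 1.15 (adjusted p = 0.388, SE 0.35).

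The interaction moved with the tool and with the RhDBCb before libraries. DESeq2 called 3 of the 39 (256 of all genes), PTPN22 and SLA2 with the larger rise in CD8 cells and THEMIS with the larger fall. Without the 4 before libraries of RhDBCb edgeR called 3 (35 of all genes), PTPN22, SLA (1.87, adjusted p = 0.0185) and TRAT1 (1.57, adjusted p = 0.0499). Without RhDBCb CD8 memory before alone it called PTPN22 (1.13, adjusted p = 0.0254) and TRAT1 (1.47, adjusted p = 0.0283), and without RhDBCb CD8 naive before SLA (1.74, adjusted p = 0.0274).

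Between the naive subsets, CD8 cells had more mRNA of SLA2, THEMIS and GRAP2 and less of TRAT1, NFATC1, CD5 and CD2 than CD4 cells. These 3 higher and 4 lower genes are 17.9% of the 39, against 3.37% of all genes tested (1.69% higher and 1.68% lower), and the medians were 0.03 for the 39 and -0.02 for all. TRAT1 stood at 33.4, 28.3 and 26.2 CPM in CD8 naive cells and 91.3, 146, 118 and 88.4 in CD4 naive cells. Every CD8 naive library was below every CD4 naive library, with a log2 fold change of -1.75 (adjusted p = 0.00195, SE 0.27). NFATC1 stood at 64, 259.5 and 209.9 in CD8 naive cells and 143, 420.4, 661 and 387 in CD4 naive cells. The RhDBCb before library was the lowest of each group and the groups overlapped, and within each of the 3 draws CD8 cells were lower, by a log2 fold change of -1.24 (adjusted p = 0.0128, SE 0.25).

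CD5, a scavenger-family receptor that dampens receptor signalling and whose surface level tracks the strength of self recognition, stood at 150.5, 184 and 157 CPM in CD8 naive cells and 242, 364, 328 and 218 in CD4 naive cells, without overlap. Its log2 fold change was -0.76 (adjusted p = 0.0263, SE 0.17). CD2 stood at 124, 129 and 101 in CD8 naive cells and 189, 209, 222 and 151 in CD4 naive cells, lower in CD8 cells by a log2 fold change of -0.70 (adjusted p = 0.0182, SE 0.15). These 2 adhesion and tuning receptors were thus lower in naive CD8 cells in each of the 3 draws.

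SLA2 was higher in CD8 naive cells, at 79.5, 63.6 and 62.1 CPM against 23.8, 23.2, 32.3 and 38.5 in CD4 naive cells, without overlap, by a log2 fold change of 1.20 (adjusted p = 0.000953, SE 0.17). THEMIS stood at 209.8, 75.8 and 141 in CD8 naive cells and 99, 37.5, 34.6 and 63.4 in CD4 naive cells. Both groups spanned a wide range and overlapped, and within each draw CD8 cells were higher, by a log2 fold change of 1.18 (adjusted p = 0.00407, SE 0.20). GRAP2, the adaptor GADS, stood at 168, 91.6 and 139 against 108, 77.1, 43.1 and 75.3, higher by a log2 fold change of 0.87 (adjusted p = 0.0432, SE 0.22). The calls of SLA2, THEMIS and TRAT1 held when any 1 of the 15 libraries was left out, while GRAP2 was called in 6 (adjusted p up to 0.235 in the others) and CD5 in 7 (up to 0.162). With animal plus time in place of the draw, THEMIS (adjusted p = 0.0799) and GRAP2 (0.0526) were not called. In the fits that left out a library, the calls of GRAP2 and CD5 were as follows. GRAP2 was called without a memory library of RhDBCb, RhDBCb CD4 naive before or RhM22 CD4 memory before, and CD5 without a memory library of RhDBCb, a CD8 memory library of RhM22 or RhM22 CD4 naive after. NFATC1 was not called without RhDBCb CD8 naive before (adjusted p = 0.0866), RhM22 CD4 naive before (0.074) or RhM22 CD8 naive after (0.0718), and CD2 without any of these 3 (0.0738 to 0.111) or RhM22 CD8 naive before (0.0941). Of the 39 genes, 4 were called without RhDBCb CD8 naive before or RhM22 CD8 naive before (316 and 318 of all genes). Without RhM22 CD4 naive before or RhM22 CD8 naive after 3 were called (342 and 318 of all genes).

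Between the memory subsets, CD8 cells had more mRNA of SLA2, PTPN22, NFATC3, CBLB and ZAP70 and less of NFATC1, CD5 and CD6. These 5 higher and 3 lower genes are 20.5% of the 39, against 8.24% of all genes tested (4.63% higher and 3.61% lower), with medians of 0.08 and 0.03. SLA2 stood at 182, 180.1, 200.1 and 206 CPM in CD8 memory cells and 39.2, 43.2, 41.3 and 40.9 in CD4 memory cells. This was the largest difference of the 39 genes in the contrast, 4.64-fold, or a log2 fold change of 2.21 (adjusted p = 2.76e-06, SE 0.16), with no overlap. PTPN22 stood at 121, 192, 176 and 144 in CD8 memory cells and 56.9, 59.4, 54.3 and 54.7 in CD4 memory cells, higher by a log2 fold change of 1.48 (adjusted p = 3.00e-05, SE 0.14) and also without overlap. DESeq2 called 12 of the 39 in this contrast (2065 of all genes), adding SLA, PLCG1, MALT1 and SOS1 to the 8. PLCG1 was also called in edgeR with no filter on low counts (adjusted p = 0.0479). The calls of SLA2 and PTPN22 in this contrast held in all 15 fits that left out a library and in the 8 other fits.

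NFATC3 stood at 324, 228, 146 and 221 CPM in CD8 memory cells and 139.5, 74.9, 91.6 and 121 in CD4 memory cells, higher by a log2 fold change of 1.09 (adjusted p = 0.000523, SE 0.15) without overlap. NFATC1, its relative, went the other way, at 60.6, 71.4, 94.6 and 136 in CD8 memory cells and 123, 223, 286 and 321 in CD4 memory cells, a log2 fold change of -1.33 (adjusted p = 0.00194, SE 0.22). CBLB, the ubiquitin ligase that restrains T cells lacking co-stimulation, stood at 148, 132, 193 and 182 in CD8 memory cells and 124, 54.7, 96.1 and 113 in CD4 memory cells, higher by a log2 fold change of 0.84 (adjusted p = 0.0106, SE 0.18) and without overlap. Its call was lost without RhM22 CD8 memory before (adjusted p = 0.0521).

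ZAP70 stood at 254, 482, 384 and 476 CPM in CD8 memory cells and 131, 334, 332 and 312 in CD4 memory cells. The groups overlapped, with RhDBCb before the lowest in both, and within each of the 4 draws CD8 memory cells were higher, by a log2 fold change of 0.59 (adjusted p = 0.0116, SE 0.13). Without RhDBCb CD4 memory before its adjusted p was 0.0545. CD5 stood at 109, 134, 139 and 178 against 239.8, 284, 299 and 285 in CD4 memory cells, without overlap, a log2 fold change of -0.99 (adjusted p = 0.00128, SE 0.16). CD6, a receptor of the same family as CD5 that binds CD166, stood at 295, 637, 867 and 999 against 769, 1087, 1292 and 1199, a log2 fold change of -0.73 (adjusted p = 0.0205, SE 0.18). CD6 was not called without RhDBCb CD4 memory before (adjusted p = 0.0769), RhDBCb CD8 memory before (0.0579), RhDBCb CD8 memory after (0.0762), RhM22 CD8 memory before (0.064) or RhM22 CD4 memory after (0.0515). With animal plus time in place of the draw, CBLB (adjusted p = 0.146), ZAP70 (0.275) and CD6 (0.141) were not called between the memory subsets.

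**Figure D3:**
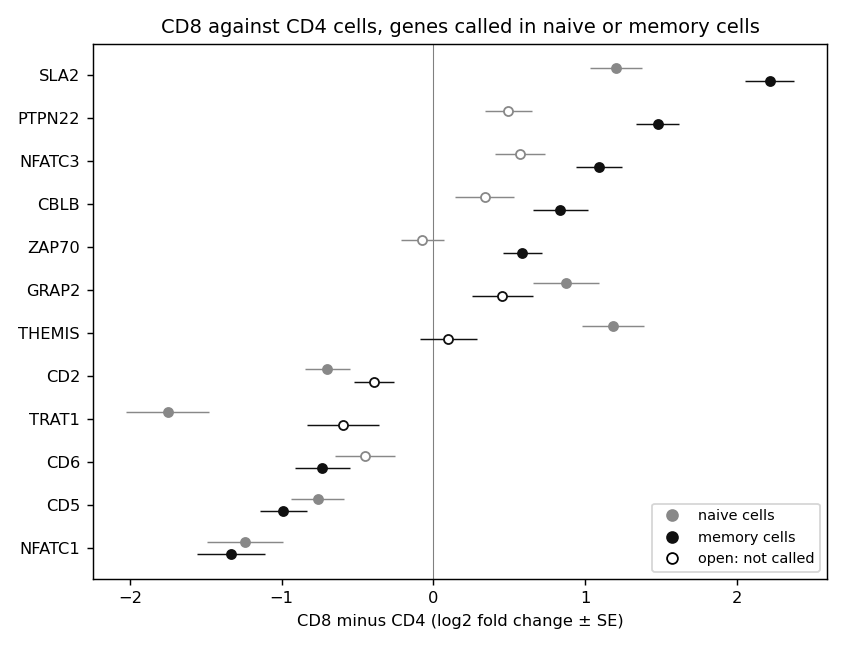
Each row is 1 of the 12 genes called between CD8 and CD4 cells in naive or memory cells, with the log2 fold change of CD8 against CD4 cells on the horizontal axis. Grey points are naive cells and black points memory cells, open points were not called, and bars are the SE. SLA2 is to the right and CD5 and NFATC1 are to the left in both, and THEMIS and TRAT1 have a filled point in the naive contrast and an open one in the memory contrast.

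SLA2, CD5 and NFATC1 were called in the same direction in both contrasts between CD8 and CD4 cells. They are 42.9% of the 7 called in naive cells and 37.5% of the 8 called in memory cells. The overlap among all genes called was not counted here either. THEMIS had a log2 fold change of 1.18 (SE 0.20) between naive cells and 0.10 (SE 0.19) between memory cells, and TRAT1 -1.75 (SE 0.27) and -0.60 (SE 0.24). The interaction given above is the test of these differences, and in edgeR it called none of the 39 genes.

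Without the 4 before libraries of RhDBCb, which had fewer genes detected as a group, 7 of the 39 were called in CD4 memory against CD4 naive cells, 10 in CD8 memory against CD8 naive, 7 in CD8 naive against CD4 naive and 9 in CD8 memory against CD4 memory. In the same order, 1748, 1919, 456 and 1387 of all genes were called, against 1708, 2448, 499 and 1221 with these libraries. Of the calls made with them, 5 of 7, 10 of 12, 6 of 7 and 7 of 8 were made without them. PPP3CA was then called in neither lineage, and GRAP2 in CD4 memory cells, LCP2 in CD8 memory cells, CD5 between the naive subsets and CD6 between the memory subsets were not called. SLA was called in 3 contrasts that had not called it, higher in CD4 memory than CD4 naive cells (0.56, adjusted p = 0.0424), lower in CD8 naive than CD4 naive cells (-0.93, adjusted p = 0.0219) and higher in CD8 memory than CD4 memory cells (0.94, adjusted p = 0.00399). NFATC1 was lower in CD4 memory than CD4 naive cells (-0.80, adjusted p = 0.0365), and CD2 was lower in CD8 memory than CD4 memory cells (-0.55, adjusted p = 0.0265).

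**Figure D4:**
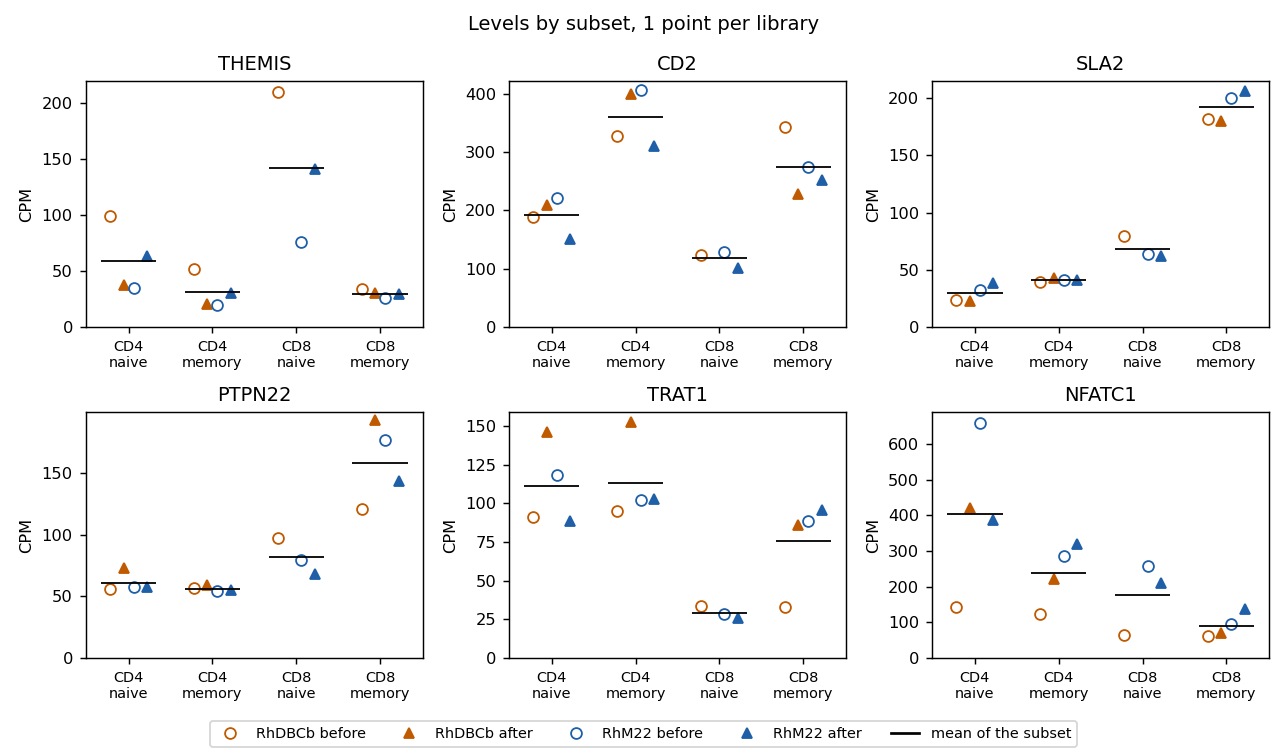
Each panel is 1 gene, with the 4 subsets on the horizontal axis and CPM on the vertical axis from 0. Each point is 1 library, with RhDBCb in orange, RhM22 in blue, open circles before and filled triangles after treatment, and the line is the mean of the subset. The 4 CD8 memory points of SLA2 sit between 180.1 and 206, above the points of every other subset, and RhDBCb before treatment is the lowest NFATC1 point in each subset.

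LAT, the membrane scaffold that ZAP70 phosphorylates, is listed without its symbol and was matched by gene ID. It stood at 132 to 429 CPM with a median of 252.5, and it was called in none of the comparisons. Its largest difference was between the animals' changes, 0.76 (SE 0.26, adjusted p = 0.108).

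After treatment, 0 of the 39 genes were called over all subsets together, and 0.00675% of all genes tested were (1 gene). DESeq2 also called 0 of the 39, but 177 of all genes. The median log2 change of the 39 was 0.10 and that of all genes tested 0.01. The 5 genes with the smallest p were CBL, ZAP70, PLCG1, NFATC2 and GRB2. CBL, a ubiquitin ligase that marks the receptor and ZAP70 for removal, stood at 1.59 to 2.61 CPM before and 2.5 to 6.01 after treatment in RhDBCb, and at 3.63 to 8.89 before and 5.02 to 12.2 after in RhM22. Its log2 change was 0.73 (adjusted p = 0.408, SE 0.27), with 6 of 7 pairs higher after treatment.

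In RhDBCb, PLCG1 stood at 1.89 CPM before and 28.1 after treatment in CD4 naive cells, at 1.63 before and 5.26 after treatment in CD4 memory cells and at 8.25 before and 50.8 after treatment in CD8 memory cells, and at 13.4 in CD8 naive cells before treatment. In RhM22 it stood at 30.8 to 74.5 before and 42.9 to 76.8 after. The RhDBCb before libraries were thus all below every RhM22 library, and the log2 change over all subsets was 1.24 (adjusted p = 0.421, SE 0.46).

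ZAP70 had a log2 change over all subsets of 0.51 (adjusted p = 0.421, SE 0.19), with 4 of 7 pairs higher. NFATC2, an NFAT factor of resting T cells, had one of 0.46 (adjusted p = 0.429, SE 0.19), with 5 of 7 pairs higher. GRB2, the adaptor that carries SOS1, stood at 171 to 286 CPM before and 226 to 295 after treatment over both animals, a log2 change of 0.20 (adjusted p = 0.457, SE 0.09) with 6 of 7 pairs higher. None of these passed the test. When each animal had its own change and the 2 changes were averaged, ZAP70 was called, at 0.57 (SE 0.10, adjusted p = 0.0186). That fit had no replicate draws, and its spread is that between subsets of the same draw. Without the 4 before libraries of RhDBCb the ZAP70 change was -0.040.

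In single subsets, 0 of the 39 genes were called in edgeR in CD4 naive, CD4 memory or CD8 memory cells, and 0% of all genes tested were. DESeq2 also called 0 of the 39 in each. The smallest p-values in CD4 naive cells were those of CBL, with a log2 change of 1.37 (adjusted p = 0.897, SE 0.55), PLCG1 with 2.08 (adjusted p = 0.897, SE 0.91) and GRB2 with 0.40 (adjusted p = 0.897, SE 0.19). In CD4 memory cells they were those of PTPN6, the phosphatase SHP-1, with 0.50 (adjusted p = 1, SE 0.23), MALT1, the protease of the complex with BCL10, with -0.67 (adjusted p = 1, SE 0.35), and ZAP70 with 0.62 (adjusted p = 1, SE 0.39).

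In CD8 memory cells the smallest p-values were those of PLCG1, with a log2 change of 1.68 (adjusted p = 1, SE 0.89), ZAP70 with 0.65 (adjusted p = 1, SE 0.39) and FYN with 0.33 (adjusted p = 1, SE 0.20). The PLCG1 value turned to -0.48 without RhDBCb CD8 memory after. In CD8 naive cells only the RhM22 pair exists, so no test was made. Its widest differences on the log2(CPM + 0.5) scale were those of THEMIS (0.89), NFATC3 (0.67) and NFATC2 (0.65).

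**Figure D5:**
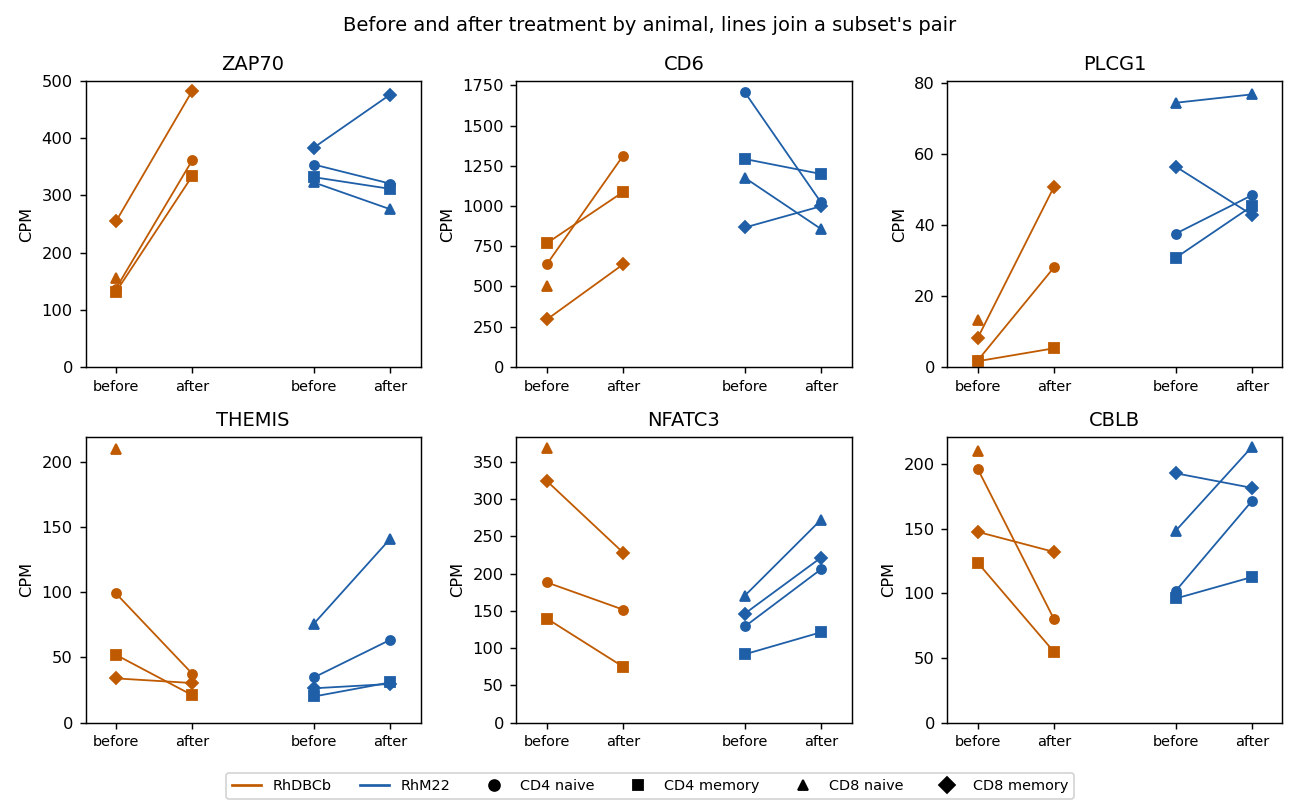
Each panel is 1 gene, with CPM from 0 on the vertical axis and the times before and after treatment for RhDBCb (orange) and RhM22 (blue) on the horizontal axis. Lines join the 2 libraries of a subset, and the unpaired triangle is CD8 naive of RhDBCb. ZAP70 and CD6 go up in all 3 RhDBCb pairs and THEMIS and NFATC3 go down in them, while THEMIS and NFATC3 go up in all 4 RhM22 pairs.

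In RhDBCb, ZAP70 and CD6 were higher and THEMIS, NFATC3 and CBLB lower after treatment in all 3 pairs. In RhM22, 1 of 4 pairs was higher for ZAP70 and for CD6, 4 of 4 for THEMIS and for NFATC3, and 3 of 4 for CBLB. The difference between their changes (RhM22 minus RhDBCb) was called for 5 of the 39 genes, 3 higher in RhM22 (THEMIS, CBLB and NFATC3) and 2 lower (ZAP70 and CD6). That is 12.8% of the 39, against 4.58% of all genes tested (1.81% higher and 2.77% lower), with medians of -0.03 and -0.01. There was a single draw per animal and time, so this test had no replicate draws. Its spread is that between subsets of a draw, and a change of the draw and a change of the animal cannot be told apart. ZAP70 stood at 131 to 254 CPM in the 4 RhDBCb libraries before treatment and at 334 to 482 in the 3 after. In RhM22 it stood at 323 to 384 before and 276 to 476 after. The times did not overlap in RhDBCb and did in RhM22, and the difference of the changes was -1.23 (adjusted p = 0.00533, SE 0.19). On the log2(CPM + 0.5) scale the differences of the RhDBCb pairs of ZAP70 were 1.39, 1.34 and 0.92 in CD4 naive, CD4 memory and CD8 memory cells.

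CD6 stood at 295 to 769 CPM before and 637 to 1312 after in RhDBCb, with pairs at 1.04, 0.50 and 1.11, and at 867 to 1706 before and 857 to 1199 after in RhM22. The times overlapped in both animals, and the difference was -1.09 (adjusted p = 0.0328, SE 0.26). The 3 RhDBCb pairs of THEMIS were at -1.39, -1.28 and -0.16, all lower after treatment, and the RhM22 pairs at 0.86, 0.61, 0.89 and 0.17 in CD4 naive, CD4 memory, CD8 naive and CD8 memory cells, all higher. The difference was 1.64 (adjusted p = 0.00933, SE 0.28), the widest of those called among the 39.

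NFATC3 had RhDBCb pairs at -0.31, -0.89 and -0.51 and RhM22 pairs at 0.67, 0.40, 0.67 and 0.60. All 3 were lower and all 4 higher, and the difference was 1.20 (adjusted p = 0.0132, SE 0.23). CBLB, the ubiquitin ligase, had RhDBCb pairs at -1.29, -1.17 and -0.16 and RhM22 pairs at 0.75, 0.23, 0.52 and -0.09, a difference of 1.25 (adjusted p = 0.0218, SE 0.27). PPP3CA was lower in all 3 RhDBCb pairs and higher in all 4 RhM22 pairs as well, but its difference of 0.94 (adjusted p = 0.068, SE 0.27) was not called. PLCG1 had the widest difference of the 39 genes, -2.31 (adjusted p = 0.0673, SE 0.67), and was not called either, nor was NFATC1 at -1.07 (adjusted p = 0.0805, SE 0.33).

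The ZAP70 call held when any 1 of the 15 libraries was left out (adjusted p up to 0.0346). THEMIS was not called without RhDBCb CD4 naive after (0.0513) or RhM22 CD8 naive before (0.0508), nor was NFATC3 without these (0.0533 and 0.0594). CBLB was not called without these (0.1 and 0.0904) or without RhM22 CD4 naive after (0.0535), and CD6 was called in 7 of the 15 fits, those without a RhDBCb memory library, RhDBCb CD8 naive before, RhM22 CD4 memory before or RhM22 CD8 memory after (adjusted p up to 0.123 in the others). Of the 39 genes, 1 was called without RhDBCb CD4 naive after or RhM22 CD8 naive before, 3 without RhM22 CD4 naive after and 8 without RhDBCb CD4 memory after. Across the 15 fits, 99 to 1314 of all genes were called. All 4 draws enter the difference, and it cannot be had when any 1 of them is left out, RhDBCb before included.

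The RhDBCb before libraries differed in more than these genes. The summed CPM of 10 platelet markers was 2.7 to 10.8 in them, 15.9 to 38.9 in RhDBCb after treatment, 25.7 to 72.3 in RhM22 before and 34.4 to 119 in RhM22 after, and the sum of 10 monocyte and dendritic cell markers was 3.84 to 11.2 in them and 9 to 47.1 elsewhere. GP9 was the 1 platelet marker at 0 in every RhDBCb before library, and CLEC4E and FCER1A were the monocyte and dendritic cell markers at 0 there, CLEC4E in every other library as well. The part of these cells, of the lower number of genes detected and of the draw itself in the differences between the animals was not tested.

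Other genes of the pathway, 104 listed of which 99 were found and 98 tested, were read beside the 39. They too were chosen with earlier results of these data known. Of the 98, 9 were called higher and 5 lower in CD4 memory than in CD4 naive cells, and 20 higher and 2 lower in CD8 memory than in CD8 naive cells. These are 14.3% and 22.4% of the 98, against 11.5% and 16.5% of all genes tested, so the CD4 share lies near that of all genes. PDCD1, the inhibitory receptor PD-1, stood at 222, 58.5, 73.3 and 85 CPM in CD8 memory cells and 20.9, 18 and 14.8 in CD8 naive cells, higher by a log2 fold change of 2.56 (adjusted p = 0.000279, SE 0.35), and it was higher in CD4 memory cells by a log2 fold change of 2.00 (adjusted p = 0.000854, SE 0.30). PTPN7, a phosphatase of ERK, stood at 252, 171, 180.5 and 189.6 against 54.1, 43.7 and 38 in CD8 naive cells, higher by a log2 fold change of 2.12 (adjusted p = 2.71e-06, SE 0.14). GAB3 and SH2D2A (the adaptor TSAd) were higher in CD8 memory cells by log2 fold changes of 2.18 (SE 0.47) and 1.97 (SE 0.27), and in CD4 memory cells by log2 fold changes of 1.55 (SE 0.42) and 1.19 (SE 0.23). HRAS was higher in CD4 memory cells by a log2 fold change of 0.84 (SE 0.23).

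Lower in CD4 memory cells were TNFAIP3, the NF-kB inhibitor A20 (log2 fold change -0.97, SE 0.23), RCAN1, an inhibitor of calcineurin (-0.66, SE 0.18), SOCS3 (-0.66, SE 0.17) and NFKBIA (-0.58, SE 0.16). In CD8 memory cells RCAN3, a relative of RCAN1, stood at 18.8, 24.6, 27.6 and 33 CPM against 65.7, 78.5 and 109 in CD8 naive cells, a log2 fold change of -1.65 (adjusted p = 2.56e-05, SE 0.15), and the kinase TEC was lower (-0.78, SE 0.22). For the interaction between lineage and memory 2 of the 98 were called (2.04%, against 0.0878% of all genes tested), PTPN7 with 1.55 (adjusted p = 0.0113, SE 0.18) and RCAN3 with -1.39 (adjusted p = 0.0264, SE 0.20). Both differences were larger in CD8 cells.

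Between CD8 and CD4 cells, 3 of the 98 were higher and 6 lower in naive cells, and 21 higher and 8 lower in memory cells, with CD4 and CD8A, which define the lineages, among them. These are 9.18% and 29.6% of the 98, against 3.37% and 8.24% of all genes tested. PIK3R1, a regulatory subunit of PI3 kinase, was higher in CD8 cells in both (0.91 (SE 0.19) naive and 1.70, SE 0.17 memory), and INPP5D, the lipid phosphatase SHIP-1, in naive cells (0.75, SE 0.18). ICOS was lower in CD8 naive cells (-1.52, SE 0.17), as were CTLA4 (-1.22, SE 0.25) and SOCS3 (-1.09, SE 0.19). In memory cells GAB3 (2.22, SE 0.41) and VAV3 (1.78, SE 0.28) were higher in CD8 cells, and RCAN3 (-1.64, SE 0.14), TEC (-1.07, SE 0.21) and CTLA4 (-0.95, SE 0.22) were lower.

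After treatment edgeR called 0 of the 98 over all subsets or in a single subset. DESeq2 called 2 over all subsets (177 of all genes) and 0 in each single subset. In edgeR the smallest p-values over all subsets were those of RASAL3 at 0.50 (adjusted p = 0.311, SE 0.13), CISH at 1.54 (adjusted p = 0.334, SE 0.44) and IKBKB at 0.44 (adjusted p = 0.334, SE 0.12). In the difference between the animals' changes 4 of the 98 were higher in RhM22 and 7 lower, or 11.2%, against 4.58% of all genes tested. Higher were UBASH3B (1.36, SE 0.26), the calcium sensor STIM2 (1.24, SE 0.22), TRAF6 (0.95, SE 0.25) and the calcineurin subunit PPP3CC (0.89, SE 0.20). Lower were CISH, a cytokine-induced brake on PLCG1 (-2.59, SE 0.46), NFKB1 (-1.60, SE 0.20), the calcium channel ITPR1 (-1.27, SE 0.27) and ORAI2 (-0.98, SE 0.20).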

How the data were processed

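RNA was measured in 15 libraries of 4 T cell subsets from 2 macaques. Per the labels' protocols, RNA from RNeasy Micro columns was selected for poly(A) and the libraries were of SMART-Seq v4, an unstranded kit. The authors deposited an expected count per gene and library. The submitters' processing notes list STAR 2.7.6a, RSEM 1.3.3 and cutadapt 1.18, with Mmul_10 and rheMac10 as builds. The authors also deposited FPKM. The gene length these imply was proportional to the genomic RefSeq span, within 20%, for 34 of the 39 genes. It was so for 6112 (74.1%) of 8246 tested genes with a RefSeq symbol and at least 50 counts in every library. Transcript lengths were not compared, and FPKM was not used for levels. No filter is stated.

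The members and gene lists were chosen with earlier results of these data known. The expected counts were rounded first, and the largest shift of a library total was 26.1. In R 4.3.3, edgeR 4.0.16 used TMM, filterByExpr (minimum count of 10) and quasi-likelihood F tests. Contrasts between subsets used subset plus draw, treatment over all subsets used subset plus animal plus time, single subsets used 8 groups plus animal, and the difference between animals used the animal-by-time term. SE is the absolute log2 fold change over the square root of F. Libraries of the same animal are paired by the labels, and before and after libraries deviated together (correlations of 0.407, 0.635 and 0.316 in CD4 naive, CD4 memory and CD8 memory cells). Pair differences used log2(CPM + 0.5). The tests were tried on simulated data with a change in CD4 memory cells alone and no effect of draw, animal or treatment. That trial thus does not bear on the treatment tests, the difference between animals or libraries that deviate together. Alternatives were DESeq2 1.42.0, its size factors in edgeR, no filter, other blocks, single times and left-out libraries.

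In contrasts between subsets up to 8 called genes per direction are named. Over all subsets and between animals it is the called genes or the 5 with the smallest p, and in single subsets the 3 with the smallest p. Of the other pathway genes it is up to 4 per direction with a mean of 5 CPM or more, or the 3 with the smallest p. The rule's part on the highest and lowest gene by FPKM was not used. Genes described for their level (LCK, FYN, the CD3 chains, PPP3CA, PLCG1 and NFATC1 between animals, the CD8 naive pair) were chosen after their values were seen.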

Additional observations from a re-analysis of the deposited data

Results flagged for a closer look

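In 5 of the 39 genes the change after treatment differed between the animals in edgeR's test of the difference itself (RhM22 change minus RhDBCb change, log2), which is 12.8%, against 4.58% of all genes tested. That test had a single draw per animal and time, so its spread is that between subsets of a draw. A change of the draw and a change of the animal cannot be told apart. Leaving out 1 library moved the count to between 1 (without RhDBCb CD4 naive after or RhM22 CD8 naive before) and 8 (without RhDBCb CD4 memory after). The count over all genes moved to between 99 and 1314. The difference was 1.64 for THEMIS (adjusted p = 0.00933), 1.25 for CBLB (0.0218), 1.20 for NFATC3 (0.0132), -1.23 for ZAP70 (0.00533) and -1.09 for CD6 (0.0328). ZAP70 was higher after treatment in 3 of 3 RhDBCb pairs and 1 of 4 RhM22 pairs, as was CD6. THEMIS and NFATC3 were higher in 0 of 3 RhDBCb pairs and 4 of 4 RhM22 pairs, and CBLB in 0 of 3 and 3 of 4.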

How the results depend on the processing

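The counts of called genes given here are of the 39, with all genes tested in brackets where these moved by more than 1.5 times. Without the draw as a replicate block, 1 (480) was called in CD4 memory against CD4 naive cells, 7 (972) in CD8 memory against CD8 naive, 2 (198) in CD8 naive against CD4 naive and 3 (390) in CD8 memory against CD4 memory, against 7 (1708), 12 (2448), 7 (499) and 8 (1221) with it. With animal plus time in place of the draw, 3 were called in CD4 memory against CD4 naive cells and 5 in CD8 memory against CD4 memory. Of all genes, 1242 and 941 were called in these 2 fits, a smaller move than 1.5 times. In that order of contrasts, before libraries alone gave 0 (165), 2 (484), 1 (120) and 2 (143), and after libraries alone 0 (198), 1 (143), 0 (56) and 2 (159). Fewer libraries enter those fits. DESeq2 called 3 (256) for the interaction between lineage and memory and 9 (1667) for the difference between animals, adding PPP3CA, BCL10, PLCG1 and NFATC1. Over all genes it called 2671 in CD4 memory against CD4 naive, 1055 and 2065 in CD8 against CD4 naive and memory cells and 177 after treatment. Without the 4 before libraries of RhDBCb the interaction gave 3 (35). The change averaged over the animals gave 1 (200) after treatment. Without the draw or animal, no gene of the 39 was called after treatment.

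Leaving out each library in turn gave 4 to 9 (1052 to 2188) in CD4 memory against CD4 naive cells, 9 to 14 (1371 to 2658) in CD8 memory against CD8 naive, 3 to 8 (316 to 612) in CD8 naive against CD4 naive, 6 to 11 (766 to 1392) in CD8 memory against CD4 memory, 0 to 2 (0 to 42) for the interaction, 1 to 8 (99 to 1314) for the difference between animals and 0 in every fit (0 to 3) for after treatment over all subsets and 0 (0) in each single subset. The genes of the 39 called in a comparison, with those of the smallest p where few or none were called, gave 1263 values under the alternatives. Of these, 1072 kept direction and side of the threshold, 181 lost the call, 8 gained one and 2 reversed, the uncalled ZAP70 change over all subsets without the 4 before libraries of RhDBCb (-0.040) and the uncalled PLCG1 change in CD8 memory cells without RhDBCb CD8 memory after (-0.48, and up to 2.70 without RhM22 CD8 memory after). Over all 39 genes and all comparisons, 28 calls were gained under the alternatives that left out no single library, 16 of them in DESeq2 and 8 without the 4 before libraries of RhDBCb, and 41 over the 15 fits that left out 1. Unless stated, the cause was not tested. The comparison of levels between genes was not run. The lowest count of the 39 genes was 69, and there were 2 animals.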
